A study of Mus musculus with 16 samples.

Results

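The T cell receptor gene segments were followed in 2 cloned lines of mouse CD8 T cells, activated through CD3 and measured on expression arrays. All probe sets with at least 1 platform gene symbol of a T cell receptor V, J or C segment were taken, which gave 52 of the 28853 probe sets of the array. The conventional clone is labelled as a CD8 T cell sensitive to cyclosporine, and the unconventional clone as one that resists it. Each was activated with an immobilized antibody to CD3, in medium without recombinant cytokines, either alone or with cyclosporine A at 1 ug/ml, and 4 arrays were made per group, 16 in all. Both clones had been grown in a mixture of IL-1a, IL-6, IL-7, IL-15, TNF-α and interferons. Cyclosporine A is a drug that blocks the phosphatase calcineurin and so the activation of NFAT transcription factors. Each arm of the study is 1 clone, so a difference between the clones is a difference between 2 cell lines and not between 2 kinds of T cell. No label says that the replicates were separate cultures, so p-values measure the spread between these arrays, which may be technical.

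The T cell receptor that most CD8 T cells carry is a pair of an α and a β chain, each joined in the thymus from V, J and, for β, D segments to a constant region. A clone therefore transcribes its own rearranged V segments strongly, and the V segments it did not use stay silent or were deleted. The γ and δ chains make up the receptor of γδ T cells. The δ locus lies inside the α locus and is lost when an α chain is joined, whereas γ genes can be rearranged and transcribed in αβ T cells too. The receptor reaches the cell surface only with the CD3 chains and the ζ chain, through which the antibody acts.

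The member probe sets name 27 segments, all of them V segments in the gene table of assembly GRCm38.p6, and no J segment or constant region. Of the table's 130 Trav genes on chromosome 14, 20 were named by a member. The same held for 2 of 35 Trbv genes on chromosome 6, 4 of 7 Trgv genes on chromosome 13 and 1 of 6 Trdv genes. By chain, 45 probe sets were α, 2 were β, 4 were γ and 1 was δ. The α class holds Trav14d-3-dv8 and Trav16d-dv11, V segments whose names mark them as usable by α and δ chains. Only 10 probe sets carried a single symbol and 42 carried several, so most values belong to a set of related segments and not to 1 gene. The mouse α locus holds duplicated V clusters, whose copies carry the letters d and n in their names. In 11 pairs of α probe sets the deposited values were identical on all 16 arrays, and both probe sets of each pair listed the same sequence records. Counts are therefore given for 52 probe sets and again for the 41 distinct profiles. The same symbols did not mean the same signal: 9 distinct profiles named Trav3n-3 and Trav3-3 alone, and their means ran from 2.69 to 8.09 in the unconventional clone under anti-CD3 alone. Where several probe sets share symbols, the platform's probe set number is given.

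Levels are log2 expression values, for which a step of 1 is 2-fold. A group mean of at least 8 was used to mark a bright probe set, a level reached by 24.8% of all probe sets in the conventional clone under anti-CD3 alone. In that group 4 of 41 profiles were bright, 3 γ profiles and 1 β profile, and 0 of 34 α profiles. With cyclosporine A the conventional clone again had 4. In the unconventional clone 8 profiles were bright with anti-CD3 alone, 5 α and 3 γ, and 10 with cyclosporine A, 7 α and 3 γ. The added profiles include the Trav3 probe set 10414967, which went from 7.96 to 8.16, a change that was not called. None of its 2 β profiles was bright in either condition. Among 31 probe sets of immunoglobulin genes, which serve as a reference for rearranging segments of another lineage, 0 were bright in any group and the highest group mean was 5.56. Just above the limit lay probe set 10414754, which names Trav14 and Trav3 segments, with a highest group mean of 8.15. Just below it lay the Trav3 probe set 10414805 at 7.80.

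**Figure D1:**
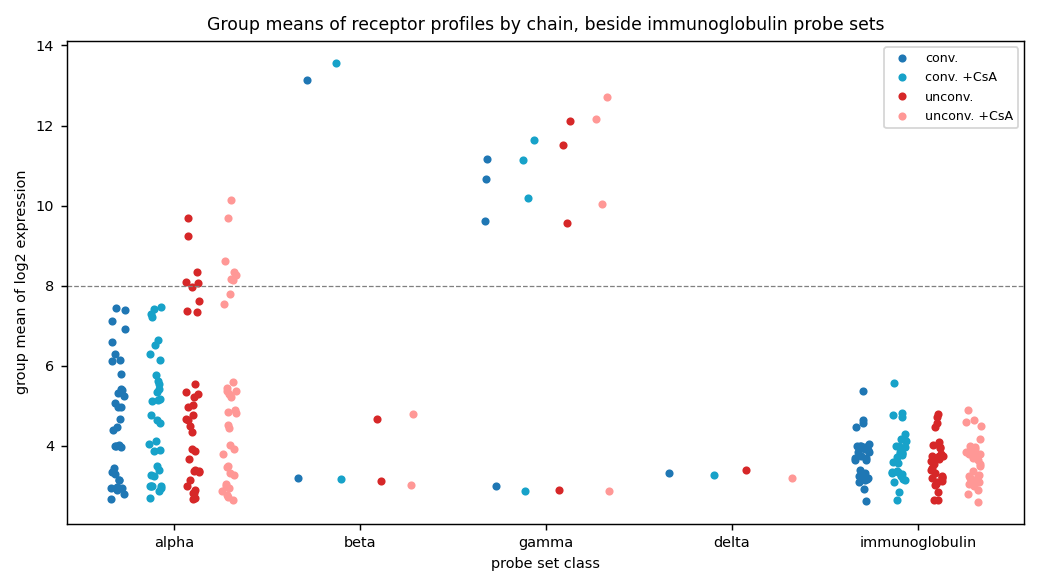
Group means (log2 expression, n = 4 arrays) of the 41 distinct receptor profiles by chain, with 31 immunoglobulin probe sets at the right; each point is 1 profile or probe set, colours mark the 4 groups and the dashed line is at 8. At this limit, bright α profiles appear in the unconventional clone alone, although α means of the conventional clone reach 7.46. The bright β profile appears in the conventional clone alone, and 3 bright γ profiles in both.

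Trbv1, a β-chain V segment, had the largest clone difference of all members. Its probe set 10537558 read 13.14, 13.15, 13.11 and 13.16 on the arrays of the conventional clone under anti-CD3 alone. On those of the unconventional clone it read 4.88, 4.72, 4.71 and 4.35. The conventional arrays lay within 0.05 of each other, and the groups were far apart. With cyclosporine A the arrays read 13.58, 13.59, 13.59 and 13.51 in the conventional clone and 4.68, 4.94, 4.93 and 4.63 in the unconventional clone. The difference, unconventional minus conventional, was -8.48 (SE 0.10, limma adjusted p = 2.9e-20) with anti-CD3 alone and -8.77 (SE 0.10, limma adjusted p = 1.5e-20) with the drug. That is 356-fold and 438-fold on the deposited scale. The low side lies within the range of the immunoglobulin probe sets in this clone, 2.65 to 4.79 with anti-CD3 alone, and RMA compresses differences against such levels. The other β probe set, which names Trbv13-2 and Trbv1 together, stood at 3.19 ± 0.08 and 3.13 ± 0.10 (SD, n = 4) in the conventional and the unconventional clone under anti-CD3 alone and was called in no comparison. The β segment of the unconventional clone can therefore not be named from these probe sets.

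The α-chain V segments showed the reverse pattern, with the bright profiles in the unconventional clone. The highest clone difference was in probe set 10414960, which names Trav13-5, Trav3n-3 and Trav3-3. It read 9.58, 9.81, 9.63 and 9.68 in the unconventional clone under anti-CD3 alone and 5.63, 5.88, 6.12 and 5.56 in the conventional clone. With cyclosporine A the unconventional arrays read 10.13, 10.17, 10.27 and 10.03 and the conventional arrays 5.82, 5.70, 5.91 and 5.63. No array of one clone reached the range of the other. The clone difference was 3.88 (SE 0.10, limma adjusted p = 2.4e-15), or 14.7-fold, and with the drug 4.39 (SE 0.10, limma adjusted p = 3.7e-16), or 20.9-fold.

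Both other profiles with these 3 symbols were also higher in the unconventional clone. Probe set 10414775, whose values were identical to those of 10414882, read 9.14, 9.34, 9.26 and 9.28 there and 5.61, 6.22, 6.20 and 6.39 in the conventional clone under anti-CD3 alone, a difference of 3.15 (SE 0.12). Probe set 10414751 read 8.26, 8.33, 8.30 and 8.49 against 6.31, 6.52, 6.74 and 6.78, a difference of 1.76 (SE 0.13). In both, all arrays of the unconventional clone lay above all those of the conventional clone. The probe set named Trav13-5 alone, 10414973, stood instead at 7.37 ± 0.15 (SD, n = 4) in the unconventional clone and 7.13 ± 0.42 (SD, n = 4) in the conventional clone. Its difference of 0.24 (SE 0.17, limma adjusted p = 0.2900) was not called, and the array ranges overlapped. The signal of the 3 called profiles can thus not be credited to Trav13-5 by name.

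Sequence records tie these profiles to others named for Trav3 alone. Probe set 10414960 lists 8 records in the platform annotation, and 9 other member probe sets list at least 1 of them. The 4 profiles among them that name only Trav3n-3 and Trav3-3 differed less between the clones. Probe set 10414805 stood at 7.61 ± 0.23 in the unconventional and 6.29 ± 0.12 (SD, n = 4) in the conventional clone, a difference of 1.33 (SE 0.14). Probe set 10414911 stood at 8.09 ± 0.12 and 6.92 ± 0.20 (SD, n = 4), a difference of 1.16 (SE 0.13). Probe sets 10414796 and 10414967 differed by 0.67 and 0.51. All 4 were called (limma adjusted p between 2.6e-07 and 9.0e-05) and did not overlap between the clones. Along the 8 distinct profiles that share records, the difference therefore ran from 0.24, which was not called, to 3.88.

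Profiles that name Trav14 segments together with Trav3n-3 and Trav3-3 were also higher in the unconventional clone. Probe set 10414754 names Trav14d-3-dv8, Trav14-1, Trav14n-2, Trav3n-3 and Trav3-3, and 10414860 held identical values. It read 7.17, 7.63, 7.38 and 7.24 in the unconventional clone under anti-CD3 alone and 4.53, 4.51, 4.20 and 4.69 in the conventional clone. With the drug it read 8.24, 7.95, 8.10 and 8.32 against 4.65, 4.59, 4.75 and 5.06. The arrays of the clones did not overlap, and the difference was 2.87 (SE 0.12, limma adjusted p = 2.0e-12), or 7.32-fold, with anti-CD3 alone. With the drug it was 3.39 (SE 0.12, limma adjusted p = 1.3e-13), or 10.5-fold. The conventional arrays lay within the range of the immunoglobulin probe sets in that clone, 2.63 to 5.36 under anti-CD3 alone, so these folds too are measured against a background level. Probe set 10414778, the same as 10414885, names this family without Trav14-1 and stood at 4.98 ± 0.15 against 3.99 ± 0.07 (SD, n = 4), a difference of 0.99 (SE 0.10). The 2 probe sets named Trav14-1 alone were dim, between 2.89 and 3.47 in all groups. Neither was called with anti-CD3 alone, and 1 of them, 10414950, was called with the drug at 0.47 (SE 0.13, limma adjusted p = 0.0091). The signal can thus not be credited to Trav14 by name either.

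**Figure D2:**
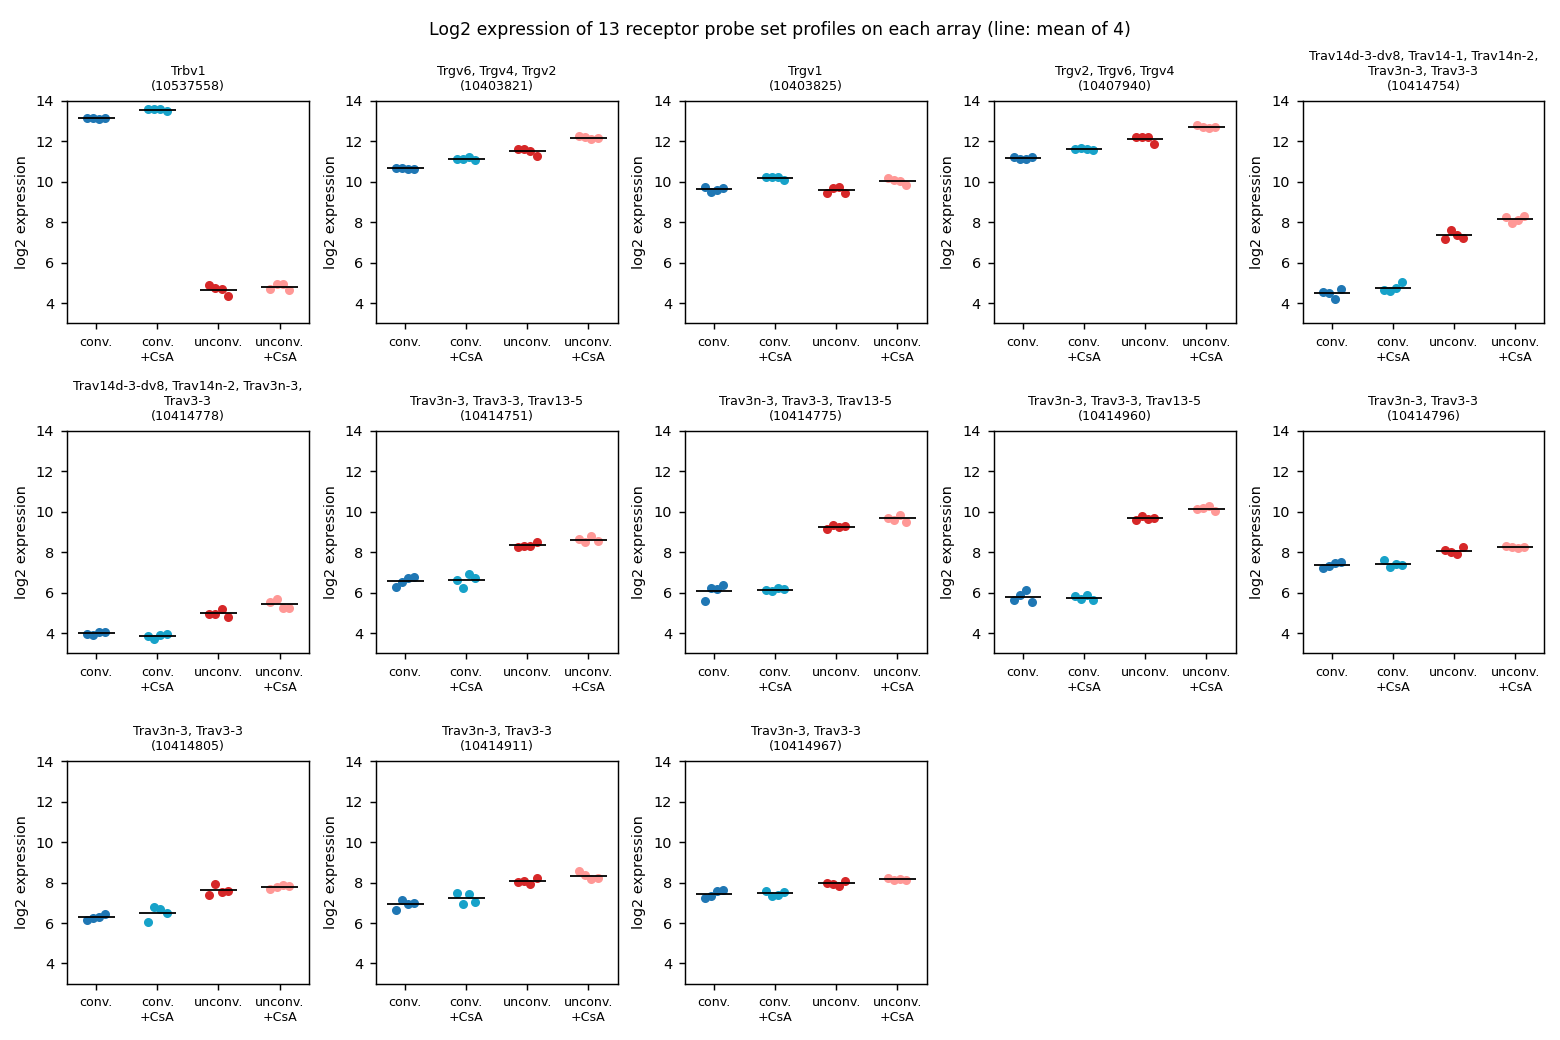
Log2 expression on every array for the 13 distinct receptor profiles that were bright in some group or differed at least 2-fold with a call; points are arrays, lines are means of 4, and numbers in brackets are platform probe set numbers. Trbv1 is high in the conventional clone alone, the α profiles, each of which names several segments, are higher in the unconventional clone, and γ profiles are bright in both.

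No α profile was bright in the conventional clone, where the highest α group mean was 7.44 with anti-CD3 alone. This rests on the limit of 8. Probe sets 10414796 and 10414967, bright in the unconventional clone with the drug, stood at 7.40 and 7.44 there. The highest immunoglobulin mean in that group was 5.36. Of 34 α profiles, 6 were called lower in the unconventional clone under anti-CD3 alone, by 0.31 to 0.60, beside 19.7% of all probe sets. That is no larger a share than over the array, so the values that follow are a description of these profiles. The one that differed most was 10414814, which adds Trav6d-6 to the pair of Trav3 symbols. It read 5.88, 5.92, 6.62 and 6.16 in the conventional clone and 5.57, 5.53, 5.42 and 5.66 in the unconventional clone, a difference of -0.60 (SE 0.12, limma adjusted p = 5.3e-04) without overlap. It changed by -0.70 (SE 0.12, limma adjusted p = 9.5e-05) between the clones with the drug. The other 5 were 3 profiles naming Trav9d-3 and Trav9d-4 (-0.31, -0.32 and -0.37), Trav19 (-0.34) and the Trav3 probe set 10414790 (-0.36). Each of these 5 calls was lost when some single arrays were left out, in 4 or 5 of 16 fits, and after cyclic loess normalization, with an adjusted p of up to 0.1437. The arrays concerned were replicates 1, 3 and 4 of the conventional and 1 to 4 of the unconventional clone under anti-CD3 alone, and the differences without them lay between -0.36 and -0.25.

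The γ-chain segments were bright in both clones. Probe sets 10407940 and 10403821 each name Trgv2, Trgv4 and Trgv6. The former read 11.23, 11.11, 11.13 and 11.20 in the conventional clone under anti-CD3 alone and 12.19, 12.21, 12.19 and 11.87 in the unconventional clone. The latter read 10.70, 10.68, 10.61 and 10.65 against 11.61, 11.62, 11.54 and 11.27. In both, every unconventional array was above every conventional one, and replicate 4 was the lowest of the unconventional clone. The differences were 0.94 (SE 0.07, limma adjusted p = 5.5e-09) and 0.85 (SE 0.07, limma adjusted p = 2.8e-08), and with the drug 1.09 and 1.04, a little over 2-fold. Trgv1, the 1 γ segment with a probe set to itself, read 9.72, 9.47, 9.60 and 9.70 in the conventional clone and 9.43, 9.70, 9.72 and 9.42 in the unconventional clone. These overlap, and the difference of -0.06 (SE 0.09, limma adjusted p = 0.6613) was not called. The fourth γ probe set, naming Trgv6 and Trgv4 without Trgv2, stood between 2.87 and 2.99 in all 4 groups. With 3 symbols on the bright probe sets, their signal cannot be assigned to 1 γ segment.

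The δ chain was represented by Trdv2-2 alone. It stood at 3.32 ± 0.04 and 3.41 ± 0.11 (SD, n = 4) in the conventional and unconventional clone under anti-CD3 alone, and at 3.27 ± 0.09 and 3.21 ± 0.08 (SD, n = 4) with the drug. Of 10 genes listed as markers of γδ T cells, 4 were measured: Sox13, Blk, Cd163l1 and Il23r. Their group means ran from 3.36 to 6.66 and summed to between 19.8 and 20.1 in the 4 groups. Blk was the one called between the clones under anti-CD3 alone, beside 37.8% of all probe sets. It stood at 5.50 in the unconventional and 5.01 in the conventional clone (0.49, limma adjusted p = 0.0019). With the drug it stood at 4.94 and 4.93. No probe set named the γδ constant regions on the list, so they could not be measured, and the part of γδ cells in the γ signal was not tested.

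Counted over all members, 23 of 52 probe sets (44.2%) were called between the clones with anti-CD3 alone, beside 37.8% of all probe sets. Higher in the unconventional clone were 15, beside 18.1%, and lower were 8, beside 19.7%. Over distinct profiles the count was 18 of 41. The share is close to that of the array, so the number of calls says little about receptor segments. At least 2-fold differences were found in 9 of 52 (17.3%), beside 6.71% of all probe sets, and in 7 of 41 profiles. Of the 9, 8 were higher, beside 3.8%, and Trbv1 was lower, beside 2.91%. All 8 name Trav3n-3 and Trav3-3 and include identical pairs, so they may read the same transcript. Their number is not a number of independent genes. Rescaling the arrays gave 11 or 12 members at 2-fold or more, and leaving out single arrays gave 9 to 12. The shares over all probe sets in those fits are not given here. With cyclosporine A 23 of 52 were called again, beside 39.4%, with 16 higher, beside 18.6%, and 7 lower, beside 20.8%. At least 2-fold were 13 (25.0%), beside 8.34%, with 12 higher, beside 4.73%, and Trbv1 lower, beside 3.61%. The 12 include the same 8 probe sets, so the same limit applies. The arrays of the clones did not overlap for 19 of 52 members with anti-CD3 alone, beside 35.8%, and for 22 with the drug, beside 38.3%. The median difference over all members was -0.02 with anti-CD3 alone, against -0.07 over all probe sets, with members on both sides of 0. The 28 distinct profiles outside the plotted 13 lay between -0.60 and 0.26.

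**Figure D3:**
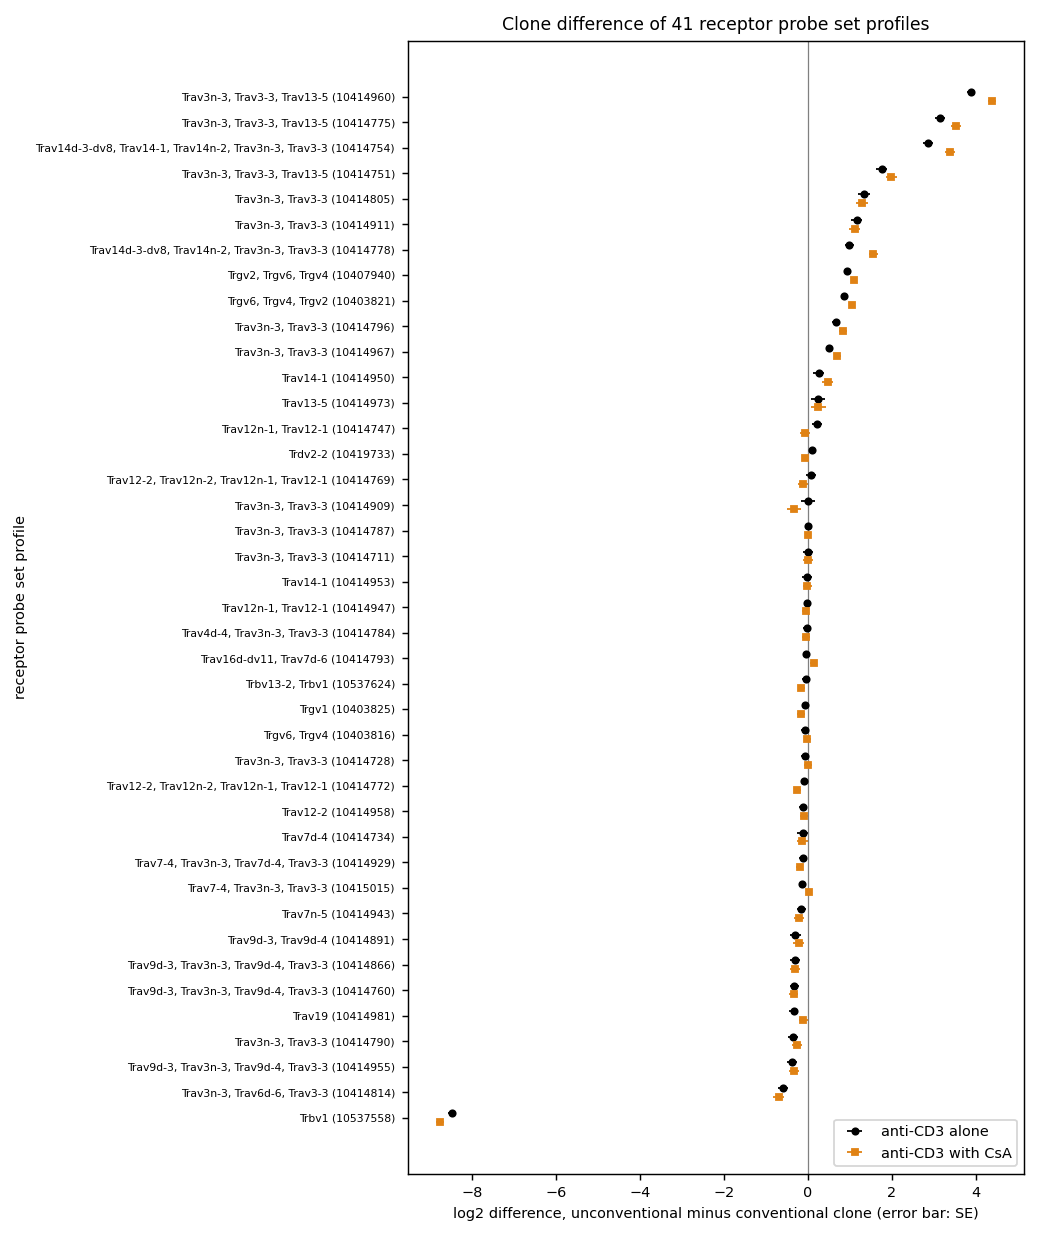
Log2 difference between the clones (unconventional minus conventional, with SE) for the 41 distinct receptor profiles, with anti-CD3 alone (circles) and with cyclosporine A (squares). Trbv1 lies at -8.48 and -8.77, the profiles that name Trav13-5 or Trav14 among others at up to 4.39, and most others near 0.

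The effect of cyclosporine A was read within each clone. In the conventional clone Trbv1 and 3 γ profiles rose with the drug, each by less than 2-fold. Trbv1 rose by 0.43 (SE 0.10, limma adjusted p = 0.0018), or 1.35-fold, and no array overlapped. Trgv1 read 10.21, 10.22, 10.22 and 10.09 with the drug and rose by 0.56 (SE 0.09, limma adjusted p = 6.7e-05). Probe set 10403821 rose by 0.48 and 10407940 by 0.46, from 11.17 ± 0.06 to 11.63 ± 0.03 (SD, n = 4). These were the 4 members called in this clone of 52 (7.69%), beside 27.2% of all probe sets, all of them higher, beside 13.5%. By limma 0 were called lower, beside 13.7%, and 0 changed at least 2-fold, beside 4.33%. Arrays with and without the drug did not overlap for 6 members, beside 27.1%. The 34 α profiles lay between -0.14 and 0.32, and 0 were called. Of the profiles that were higher in the other clone, 10414960 differed by -0.03 (SE 0.10) and 10414775 by 0.05 (SE 0.12). Others had larger differences that were not called, 10414911 at 0.31 (SE 0.13, limma adjusted p = 0.0843), 10414754 at 0.28 (SE 0.12) and 10414805 at 0.23 (SE 0.14). That of 10414911 was called without replicate 2 of either conventional group.

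In the unconventional clone, α and γ profiles rose with the drug. Probe set 10414754, which names Trav14 and Trav3 segments, rose by 0.80 (SE 0.12, limma adjusted p = 9.4e-05), from 7.35 ± 0.20 to 8.15 ± 0.16 (SD, n = 4). Probe set 10414960, which names Trav13-5 and Trav3 segments, rose by 0.47 (SE 0.10, limma adjusted p = 0.0025). The dimmer 10414778, which names Trav14 and Trav3 segments, rose by 0.46 (SE 0.10, limma adjusted p = 0.0022). Probe set 10414775 rose by 0.43 (SE 0.12, limma adjusted p = 0.0182). It was no longer called without replicate 1 of the unconventional anti-CD3 group (0.39, adjusted p = 0.0575) or without replicate 3 of the group with the drug (0.36, adjusted p = 0.0692). In the other 3, and in 10414775, all arrays with the drug lay above all without it.

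The γ profiles rose in this clone too, 10403821 by 0.66 (SE 0.07), 10407940 by 0.61 (SE 0.07) and Trgv1 by 0.46 (SE 0.09, limma adjusted p = 8.0e-04). For 10407940 the 4 arrays with the drug read 12.80, 12.72, 12.67 and 12.69, above the highest array without it at 12.21. Without unconventional anti-CD3 replicate 4, the low array, its rise was 0.52. The 4 profiles named for Trav3 alone, with differences of 0.18 to 0.26, and 10414751 at 0.28 were not called. Trbv1 stayed at its low level, with a difference of 0.13 (SE 0.10, limma adjusted p = 0.4472). Trdv2-2 changed by -0.20 (SE 0.07, limma adjusted p = 0.0482) at background level, a call that was lost in 12 of 16 fits with an array left out. It was kept without conventional replicate 1 or 2 with the drug, unconventional anti-CD3 replicate 4 or unconventional replicate 3 with the drug, and the difference ran from -0.25 to -0.17 over the 16 fits.

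In all, 11 of 52 members (21.2%) were called in this clone, beside 20.6% of all probe sets, and 8 of 41 distinct profiles. Higher with the drug were 10 of 52 (19.2%), beside 10.2%, and 1, Trdv2-2, was lower, beside 10.4%. At least 2-fold changes by limma numbered 0, beside 1.85%, and the arrays did not overlap for 14 members, beside 23.9%. Bright probe sets are called more often, so the count was also set against those. Of probe sets with a mean of at least 8 over the clone's 8 arrays, 28.1% were called higher in the conventional clone and 20.5% in the unconventional clone, with medians of 0.00 and -0.01. The member profiles of this kind were 4 in the conventional clone, all 4 called higher with a median of 0.47. In the unconventional clone they were 9, of which 5 were called higher and 0 lower, with a median of 0.43. Both of these sets hold related probe sets that may read the same transcript, so their number is not a number of independent genes.

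**Figure D4:**
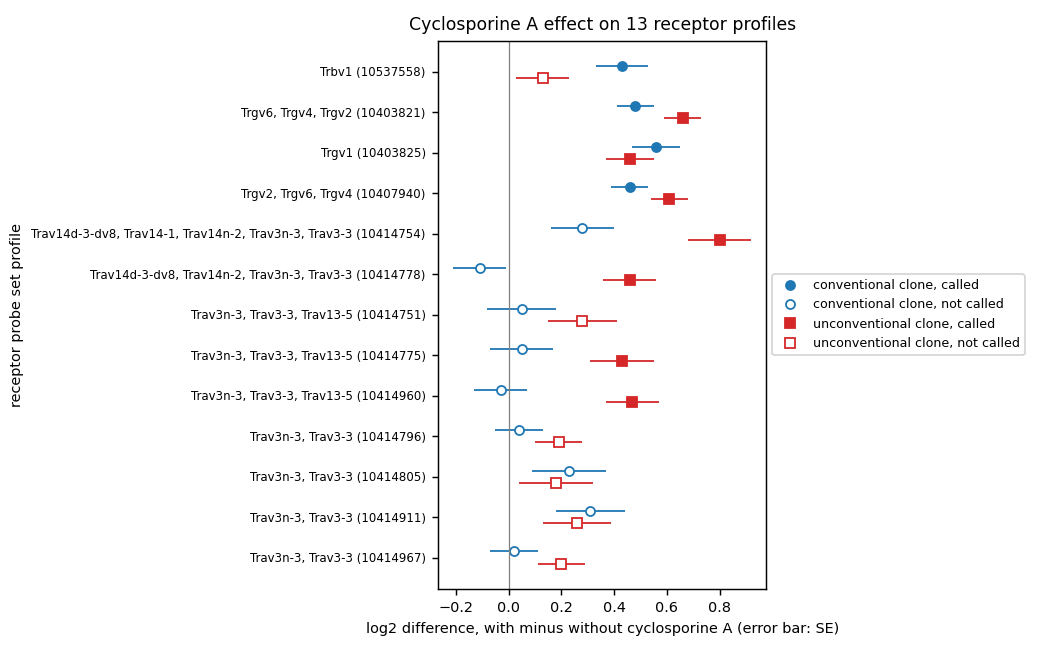
Log2 difference with minus without cyclosporine A (with SE) for 13 distinct receptor profiles in the conventional (circles) and unconventional clone (squares); filled symbols were called at an adjusted p under 0.05. The γ profiles rise in both clones, and Trbv1 is called in the conventional clone. In the unconventional clone 4 α profiles that name Trav13-5 or Trav14 among others are called, and 10414751, which also names Trav13-5, is not.

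The drug's effects in the clones were compared by the difference of the effects. It was called for 3 of 52 members (5.77%), beside 12.9% of all probe sets, which are 2 distinct profiles. All 3 were higher in the unconventional clone, beside 6.77%, and 0 were lower, beside 6.09%, or reached 2-fold, beside 2.54%. Probe set 10414778 differed by 0.57 (SE 0.14, limma adjusted p = 0.0097) and kept its call with each array left out. Probe set 10414960 differed by 0.50 (SE 0.15, limma adjusted p = 0.0296), a call that was lost in 8 of 16 fits with an array left out, where the difference ran from 0.40 to 0.58. Those 8 left out conventional anti-CD3 replicates 2 and 3, conventional replicates 2 and 4 with the drug, unconventional anti-CD3 replicates 1 and 3, or unconventional replicates 2 and 3 with the drug. Their values lay between 0.40 and 0.50, with adjusted p up to 0.0671. In the conventional clone 10414778 stood at 3.99 and 3.88 without and with the drug, and 10414960 at 5.80 and 5.76. Whether these levels bear on the difference of effects was not tested. The difference was not called for probe set 10414754 (0.52, SE 0.18, limma adjusted p = 0.0644), for Trbv1 (-0.30, SE 0.13, limma adjusted p = 0.1926) or for the 3 bright γ profiles (-0.10, 0.14 and 0.18, with SE of 0.10 to 0.13). The difference of 10414754 was called after quantile normalization, in the brighter part of the probe sets and in 4 of 16 fits with an array left out. Those 4 left out conventional anti-CD3 replicate 3, conventional replicate 4 with the drug, unconventional anti-CD3 replicate 2 or unconventional replicate 2 with the drug, and the adjusted p over all alternatives ran from 0.0209 to 0.1338. The comparisons of this section share arrays with the clone comparisons above.

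The genes that act with the receptor were taken from 5 lists of 40 genes, of which 38 were measured by a probe set with 1 symbol. The CD3 chains, which carry the receptor to the surface, rose with the drug in both clones. Cd3g rose by 0.45 (SE 0.06) in the conventional and 0.54 (SE 0.06) in the unconventional clone, Cd3d by 0.22 and 0.40, and Cd3e by 0.37 and 0.32. The ζ chain Cd247 was not called in the conventional clone (0.11, SE 0.06) and fell by 0.26 in the unconventional clone (limma adjusted p = 0.0031). Between the clones with anti-CD3 alone, Cd247 was the 1 of 4 that was called, beside 37.8% of all probe sets. It stood at 9.78 ± 0.08 in the conventional and 9.09 ± 0.06 (SD, n = 4) in the unconventional clone, a difference of -0.69. The median drug effect over the 4 chains was 0.29 and 0.36.

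The co-receptor chains Cd8a and Cd8b1 differed by -2.19 (SE 0.08) and -2.08 (SE 0.07), unconventional minus conventional, with anti-CD3 alone, and Cd4 was at 4.21 to 4.32 in all groups. The effect of the drug on Cd8a was -0.58 in the conventional and -1.75 in the unconventional clone. The genes of the pre-receptor and of recombination, Ptcra, Rag1, Rag2 and Dntt, stood between 2.91 and 5.79, and 0 of 4 were called in any comparison by limma over all probe sets.

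Of 12 measured regulators of receptor loci, 10 were called with the drug in the conventional clone, 6 higher and 4 lower, and 6 in the unconventional clone, 4 higher and 2 lower, beside 27.2% and 20.6% of all probe sets called. Runx1, a factor of the receptor enhancers, rose by 0.81 and 0.72, while Lef1, another such factor, changed by -1.61 and -0.49. Gata3, a T cell master factor, rose by 0.94 in the conventional clone and fell by 0.47 in the unconventional clone. Myb changed by -1.82 in the conventional clone and by 0.11, not called, in the unconventional clone, and the difference of the effects was called at 1.93. Between the clones with anti-CD3 alone 10 of 12 were called, beside 37.8% of all probe sets. Higher in the unconventional clone were 4, beside 18.1%, and lower were 6, beside 19.7%, with a median of -0.29 over the list. The E protein Tcf3 was higher by 1.27 (SE 0.07), and Myb differed by -0.94 (SE 0.08). Of 15 measured adaptors and turnover genes, 9 were called with the drug in the conventional clone, 8 of them higher, beside 27.2% called and 13.5% higher over all probe sets. In the unconventional clone 6 were called, 5 of them higher, beside 20.6% and 10.2%. The largest drug effects of the list were in the conventional clone, where Ubash3b rose by 3.18 (SE 0.14) and the adaptor gene Sit1 by 2.24 (SE 0.10). In the unconventional clone they differed by -0.14 and -0.22 and were not called, and the difference of the effects was called for both, at -3.32 and -2.46. Ubash3b stood there at 4.56 without and 4.42 with the drug, and Sit1 at 4.85 and 4.64. The highest immunoglobulin means in this clone were 4.79 and 4.89. Whether these low levels bear on the difference of effects was not tested. Sla2, an adaptor that dampens receptor signalling, rose by 2.18 and 1.36, and the ubiquitin ligase gene Cblb by 1.00 and 0.59. Ubash3a, a negative regulator of receptor signalling, stood at 9.32 ± 0.02 in the conventional and 5.30 ± 0.19 (SD, n = 4) in the unconventional clone.

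Over all 5 lists, 23 of 38 genes were called with the drug in the conventional clone, with a median of 0.11, and 17 in the unconventional clone, with a median of 0.09, against a median of 0.01 over all probe sets in both. The shares called over all probe sets were 27.2% and 20.6%.

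The labelled cell type was checked against markers. Of 10 CD8 T cell markers, 7 were bright in some group, including Cd8a, Cd8b1, Cd3e, Cd3d, Cd3g and Thy1, while Cd2, Cd5 and Eomes stayed between 3.95 and 5.12. Of 4 measured B cell markers, 0 were bright, with the highest group mean at 5.16, and of 4 CD4 T cell markers 0 were bright. Zbtb7b, a factor of the CD4 lineage, was the highest of these at 6.20 to 7.07, and was called higher in the unconventional clone under anti-CD3 alone by 0.34 (limma adjusted p = 0.0019). Of 6 macrophage and dendritic cell markers, Cd68 alone was bright, at 8.71 in the unconventional and 7.26 in the conventional clone under anti-CD3 alone, and Csf1r, Cd14, Lyz2, Adgre1 and Itgam lay between 3.52 and 4.29. Of 4 genes listed for NKT and MAIT cells, Mr1 alone was bright, at 9.11 in the conventional clone with the drug. With anti-CD3 alone it stood at 7.99 in the conventional and 6.75 in the unconventional clone (-1.24, limma adjusted p = 1.2e-08). Its level is not taken here as a sign of these cells. Zbtb16, Klrb1c and Slamf1 lay between 3.05 and 4.87. In a bulk sample fewer cells that carry a transcript and less transcript per cell cannot be told apart.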

How the data were processed

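The authors deposited 1 log2 expression value per probe set and array, from an Affymetrix whole-transcript platform. The submitters' processing notes name RMA, GCOS and Partek 6.2 without saying which did what. The log2 scale rests on the range of the values, 2.08 to 14.55. The genome build is not given in the sources used here, so no coordinates are printed. Array medians were 5.16 to 5.35, and arrays of a group correlated at 0.995 to 0.998. Precision is limited by the number of arrays.

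All 28853 probe sets and 16 arrays entered 1 linear model of the 4 group means, in limma 3.58.1 in R 4.3.3 (12 residual degrees of freedom, median 17.3 after moderation). Tests were two-sided, with Benjamini-Hochberg adjustment over all probe sets within each of 5 contrasts, and a probe set was called at an adjusted p under 0.05. The steps were tested on simulated data. Named members were those with a group mean of at least 8 or a call at 2-fold or more; the rule also names constant regions, of which there were none. List genes were named by list. Members called at less than 2-fold (Trav6d-6, Trav9d, Trav19, Trav14-1, Trdv2-2) and Trav13-5 alone were singled out after their values were seen. The members and gene lists were chosen with earlier results of these data known. The alternatives were array scaling, a filter on dim probe sets, 1 probe set per gene, the variance model, the groups fitted, a replicate block, the level limit and each array left out.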

Additional observations from a re-analysis of the deposited data

Results flagged for a closer look

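Among 13 named receptor profiles and 11 partner genes, 96 groups of 4 arrays were checked for 1 array apart from the others, and 6 were found, where chance gives about 1 in 20. The gap to the nearest array, as a share of the group's range, was 0.942 for Trgv1 in the conventional clone with cyclosporine A, where replicate 4 read 10.09 and the next array 10.21. For Trbv1 in the same group it was 0.894, with replicate 4 at 13.51 and the next at 13.58. For the γ probe set 10407940 it was 0.934 in the unconventional clone with anti-CD3 alone, with replicate 4 at 11.87 and the next at 12.19. The other 3 were Cd3g in the conventional clone with the drug (0.970, replicate 3 highest at 12.64), Cd247 (0.909, replicate 2 highest at 9.18) and Dntt (0.868, replicate 2 highest at 3.60), the latter 2 in the unconventional clone with anti-CD3 alone.

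The drug's effect differed between the clones, by the limma test of the difference, for 4 of these 24 features, beside 12.9% of all probe sets, so the count itself does not set them apart. It was higher in the unconventional clone by 0.57 for probe set 10414778, which names Trav14 and Trav3 segments, and by 0.50 for 10414960, which names Trav13-5 and Trav3 segments. It was lower there for Cd247, at -0.37 (limma adjusted p = 0.0053), and for Cd8a, at -1.17 (limma adjusted p = 9.4e-07).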

How the results depend on the processing

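Of the receptor calls, those between the clones of Trbv1, the profiles that name Trav13-5 or Trav14 among others (10414960, 10414775, 10414751, 10414754 and 10414778) and γ probe sets 10403821 and 10407940 held in every alternative that included them, and no called value changed sign. The setting with single symbols included Trbv1 alone of these, and the filter on dim probe sets removed 10414778. With 1 probe set per gene and single symbols, 9 receptor genes remained. For the drug 2 were called in each clone, Trgv1 with Trbv1 in the conventional and with Trdv2-2 in the unconventional clone. For the difference of effects 0 were called. Between the clones 2 were called in each condition (1 at least 2-fold), Trbv1 with Trav19 under anti-CD3 alone and with Trav14-1 under the drug. The share called over the 19938 genes of that setting is not given here, so these counts are a description. After quantile normalization 5 members were called for the difference of effects. Leaving out each array in turn gave 4 to 7 members called for the drug in the conventional clone (7 without its replicate 2 with the drug), 8 to 11 in the unconventional clone, 2 to 5 for the difference (5 without conventional anti-CD3 replicate 1 or unconventional anti-CD3 replicate 2), 18 to 25 between the clones with anti-CD3 alone and 18 to 27 with the drug. Bright probe sets at a limit of 8 numbered 4, 4, 10 and 13 of 52 in the conventional clone without and with the drug and the unconventional clone without and with it. At 7 they were 8 and 9 in the conventional groups, at 9 they were 6 and 6 in the unconventional groups, and among single-symbol probe sets they were 2, 2, 1 and 1. For arrays with the same replicate number the correlation of deviations was -0.18 to 0.29 (median 0.01, 4 of 24 pairs over 0.1). For arrays with other numbers it was -0.35 to 0.35 (median -0.01, 11 of 72 pairs over 0.1). These values show no pairing by number, but they cannot exclude that arrays were handled in matched sets. With the replicate number as a block, 5, 11, 3, 24 and 23 members were called in the 5 contrasts. For these counts and those after quantile normalization or with an array left out, the share called over all probe sets is not given here. They are a description. Median centring moved no named profile by more than 0.07. Dim probe sets limit what can be seen of silent segments.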

Other observations

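Sharing of values was not particular to receptor probe sets: 701 of 28853 probe sets on the array held the same value on all 16 arrays as at least 1 other probe set, which leaves 28377 distinct profiles.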
